A study of Homo sapiens with 4 samples.

Results

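The genes described here encode the initiation, elongation and termination factors of cytosolic translation. They were chosen by name as the rows of the count table that GENCODE release 29 annotates as protein-coding and whose symbol starts with EIF, or with EEF other than EEF1E1 and the EEF1AKMT genes, together with ETF1, GSPT1 and GSPT2. The rule used no measured value, though it was chosen with earlier results of these data known. It gave 68 of the 64252 genes in the table. The RNA came from J.gamma1, a PLCG1-deficient subline of Jurkat, the human T-ALL (T-cell acute lymphoblastic leukaemia) line, so that each library came from a single line. One group was cultured with 10 µM FB23-2, an inhibitor of the RNA demethylase FTO, and the other with the DMSO vehicle at under 0.1%, both for 48 h. Each group had 2 libraries, which the labels call independent biological replicates. The comparison asked which transcripts FB23-2 changed.

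Translation starts when eIF2, bound to GTP, brings the initiator methionyl tRNA to the small ribosomal subunit, which also carries eIF3, eIF1, eIF1A and eIF5. The eIF4 factors bind the mRNA cap, unwind the leader and load that subunit, which scans to the start codon, and eIF5B then joins the large subunit. After each round eIF2B reloads eIF2 with GTP. Stress kinases phosphorylate eIF2 and so block eIF2B. When mTORC1 is inactive, the eIF4E-binding proteins keep the cap-binding factor eIF4E from the scaffold eIF4G. Elongation factors then deliver aminoacyl tRNAs and move the ribosome, and the release factors end synthesis at stop codons. MYC is known to raise the RNA of several initiation factors, and dividing lymphoid cells depend on a high rate of translation.

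Libraries held 24615359 to 37804516 counts. Chi-square per degree of freedom was taken over genes above a minimum summed count in each pair of libraries. It was 6.69 and 7.48 between replicates and 74.6 to 82.3 between groups, and so the 4 libraries were kept as separate samples. Levels are counts scaled to a common library size (CPM) and adjusted by TMM (a method that sets a typical gene to no change), and are given in the order replicate 1, replicate 2. They are shares of a library and do not measure RNA per cell. In bulk RNA, fewer cells of a type and less RNA per cell cannot be told apart. Each fold change is the log2 of the FB23-2 level divided by the control level, followed by its standard error (SE). A gene was called when its adjusted p, from the quasi-likelihood test of edgeR with Benjamini-Hochberg adjustment over all 18817 tested genes, was under 0.05. Each of 11 T lineage markers was above 1 CPM in every library, and PLCG1 RNA, which does not show whether its protein is made, was at 265 and 265 CPM in the control libraries and 295 and 291 CPM in the FB23-2 libraries. The T lineage markers summed to 2229 and 2232 CPM in control and to 1755 and 1697 CPM with FB23-2, where 8 were lower and 1 was higher, and their part in the results was not tested. Summed markers of B, myeloid, erythroid, natural killer, and epithelial and fibroblast cells were at most 48.4 CPM in any library, of which the B lineage gene CD79A made up 38.9 to 44.5 CPM with no difference called. Of the fibroblast markers COL1A2 was called lower, with 2.57 and 2.15 CPM in control and 0.183 and 0 CPM with FB23-2.

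Translation factor RNAs were mostly lower after FB23-2. Of the 68 genes, 66 had enough counts to be tested, and 41 of these fell while 6 rose, 47 in all against a background of 42.1% of all tested genes called in either direction. The shares were 62.1% lower and 9.09% higher, against 20.3% lower and 21.8% higher over all tested genes. Over the 13451 tested genes that are protein-coding, as all genes of the set are, the shares were 23.4% lower and 27.5% higher. The median log2 fold change was -0.33 for the translation factors and 0.00 over all tested genes. Both FB23-2 libraries lay below both control libraries for 48 of the 66 genes (34.5% of all tested genes) and above them for 7 (36.3%), so that the groups were apart for 55 (70.8%). Changes were mostly under 2-fold: 4 of the 66 genes were called and at least 2-fold lower (4.46% of all tested genes), and 0 were called and at least 2-fold higher (3.03% of all tested genes). As a share of all counts, the 68 genes took 2.62% and 2.59% in the control libraries and 2.199% and 2.16% in the FB23-2 libraries. EIF4E1B, an isoform of the cap-binding protein, and EIF1AY, the Y-linked copy of eIF1A, had 0 counts in all 4 libraries and were not tested. Genes that fell stood in each role except the eIF2 kinases, of which 0 of 4 fell. Among the eIF4E-binding proteins this was only EIF4EBP3, whose value is uncertain, and the calls in eIF2B moved with the settings. Of the 52 tested genes outside eIF3, 28 were lower and 6 were higher.

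**Figure D1:**
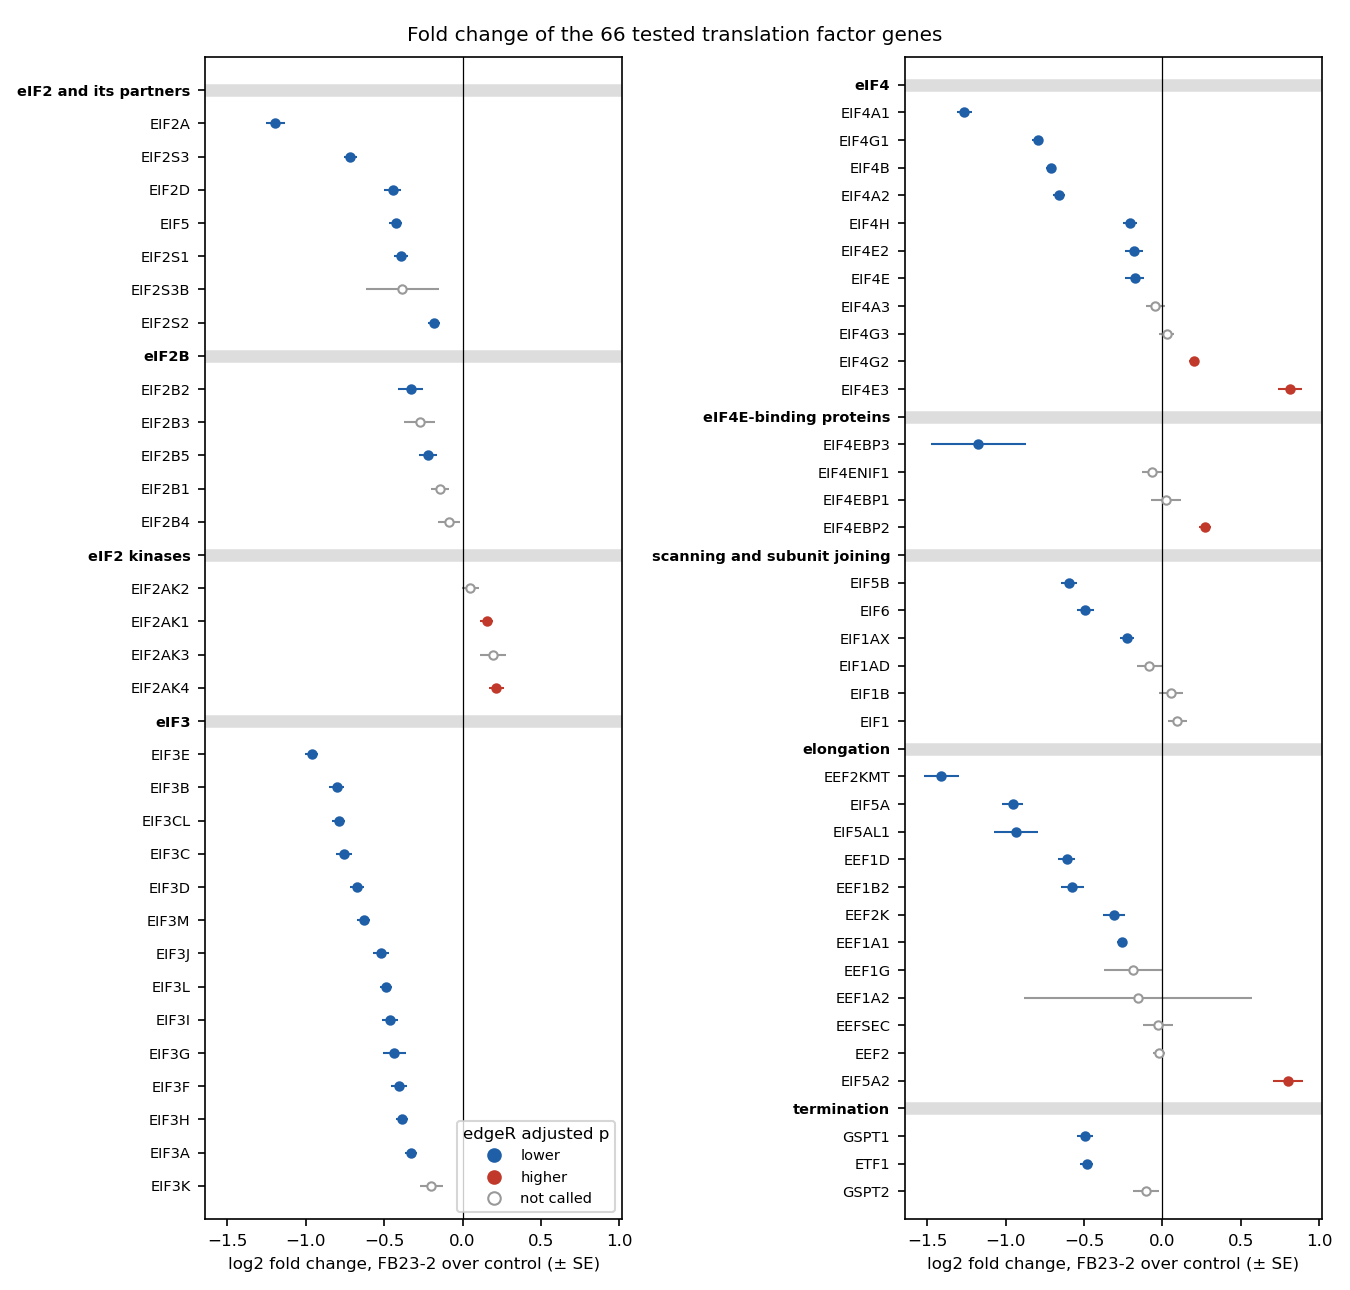
Log2 fold change of FB23-2 over control (x axis, bars are the SE, 2 libraries per group) for each of the 66 tested genes, in groups by role. Filled points are called (blue lower, red higher) and open points are not. In eIF3, 13 of 14 genes were called lower (20.3% of all tested genes), or 12 rows with EIF3C and EIF3CL summed. In the eIF2 kinases 2 of 4 were called higher (21.8% of all tested genes).

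Stretches upstream of gene starts with the E-box CACGTG, the core letters recognised by MYC and its partners, are shown first. Whether this motif bears on the changes was not tested. Windows of 300 bases, from 250 before to 50 after the start, were taken from RefSeq on GRCh38.p14, and 56 of the 68 genes matched by symbol. An E-box, which reads the same on both strands, was in a window of 14 of these 56 genes (25.0%), against 8.77% of all 27305 symbols in the table. By call, 7 of 32 lower genes, 1 of 5 higher genes and 6 of 17 genes without a call held one. Over all symbols of tested genes the shares were 17.8% of those lower, 10.6% of those higher and 11.3% of those not called. MYC RNA itself stood at 367 and 366 CPM in the control libraries and 66.5 and 58.5 CPM in the FB23-2 libraries. The stretches below are from the cap-binding group, from eIF3 and from the called-higher gene EIF5A2. Each is 5′ to 3′ on the gene's strand, ends before the RefSeq start, and has the E-box in capitals.
EIF4G1: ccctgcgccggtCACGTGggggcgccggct
EIF4E: ggacatatccgtCACGTGgccagaagctgg
EIF4B: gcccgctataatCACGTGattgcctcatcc
EIF3F: aaagctctagctCACGTGgtgtatattcag
EIF5A2: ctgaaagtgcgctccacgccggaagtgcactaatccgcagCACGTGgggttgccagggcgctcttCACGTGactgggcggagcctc
The EIF4G1 stretch is at chr3:184314527-184314556, plus strand, and its E-box begins 67 bases before the start, with another, not shown, 144 bases before the start. For EIF4E the stretch is at chr4:98929188-98929217, minus strand (72 bases before, with another E-box 225 bases before, not shown), for EIF4B at chr12:53006422-53006451, plus strand (22 bases before) and for EIF3F at chr11:7987257-7987286, plus strand (68 bases before). That of EIF5A2, at chr3:170908779-170908864, minus strand, holds a pair of E-boxes, 187 and 162 bases before the start. So the motif stood before the RefSeq start of genes that fell, of a gene that rose and of the 6 genes without a call, whose stretches are not shown. Pairs of E-boxes stood before EIF4G1 and EIF4E, which fell, as well as EIF5A2. The stretches of EIF4G1, EIF4E, EIF4B and EIF3F overlap exons annotated in GENCODE and lie within the spans it gives these genes, whereas that of EIF5A2 lies upstream of its span and overlaps no exon. The letters TGATGNAA, a core of the element bound by ATF4 with its partners, were searched on both strands as well and were in the window of 1 of the 56 genes, EIF4E3, against 4.46% of all symbols. A match describes letters only.

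The 3 subunits of eIF2 fell by unequal amounts. EIF2S1 encodes the alpha subunit (ENSG00000134001, chromosome 14, 67359997 to 67386516 of hg38), which carries the serine that the eIF2 kinases phosphorylate. It stood at 192 and 182 CPM in the control libraries and 143 and 142 CPM in the FB23-2 libraries, for a log2 fold change of -0.39 ± 0.05, edgeR adjusted p = 0.000117. The beta subunit EIF2S2, which binds eIF5 and eIF2B, stood at 293 and 299 CPM in the control libraries and 266 and 256 CPM in the FB23-2 libraries. Its change was small (-0.18 ± 0.04, edgeR adjusted p = 0.00526) and the call was lost without control replicate 2 (0.0734), with adjusted p from 0.0017 to 0.0734 over all settings of edgeR and DESeq2. The gamma subunit EIF2S3, which binds GTP and the initiator tRNA, stood at 256 and 245 CPM in the control libraries and 152 and 153 CPM in the FB23-2 libraries and fell the most of the 3 (-0.72 ± 0.04, edgeR adjusted p = 2.65e-06). In each of these genes both FB23-2 libraries were below both control libraries (34.5% of all tested genes). EIF2S3B, a copy of the gamma subunit gene, was at 3.403 and 3.28 CPM in the control libraries and 2.28 and 2.85 CPM in the FB23-2 libraries and was not called (-0.38 ± 0.23, edgeR adjusted p = 0.224), and 17.9% of the 75-base windows of its transcripts also occur in EIF2S3, so its counts are uncertain.

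Proteins that work beside eIF2 fell too. EIF5, the GTPase-activating partner of eIF2 which had the highest CPM of this group in control but less than EIF2S2 with FB23-2, stood at 306 and 315 CPM in the control libraries and 233 and 229 CPM in the FB23-2 libraries (-0.43 ± 0.04, edgeR adjusted p = 3.16e-05). EIF2A, a separate protein proposed to deliver initiator tRNA without eIF2, had the largest fall of the group. EIF2A (ENSG00000144895, chromosome 3, 150546678 to 150584242) stood at 101 and 108 CPM in the control libraries and 47.0 and 44.3 CPM in the FB23-2 libraries, a 2.29-fold decrease (-1.19 ± 0.06, edgeR adjusted p = 1.21e-06). EIF2D, a factor of tRNA delivery and ribosome recycling, fell less (-0.45 ± 0.05, edgeR adjusted p = 0.000179). In all, 6 of 7 genes of eIF2 and its partners fell (85.7%) and 0 rose, against 20.3% and 21.8% of all tested genes. Their median was -0.43.

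In eIF2B, the exchange factor that phosphorylated eIF2 blocks, all 5 subunits had lower values with FB23-2, but only EIF2B2 and EIF2B5 passed the test. EIF2B5 encodes the catalytic epsilon subunit and stood at 88.5 and 90.8 CPM in the control libraries and 73.5 and 80.6 CPM in the FB23-2 libraries (-0.22 ± 0.06, edgeR adjusted p = 0.0146). EIF2B2, the beta subunit, stood at 36.1 and 36.2 CPM in the control libraries and 30.1 and 27.3 CPM in the FB23-2 libraries (-0.33 ± 0.08, edgeR adjusted p = 0.0087). The alpha subunit EIF2B1 was at 101 and 92.6 CPM in the control libraries and 88.1 and 86.3 CPM in the FB23-2 libraries (-0.15 ± 0.06, edgeR adjusted p = 0.0664), and the gamma subunit EIF2B3 at 23.9 and 22.0 CPM in the control libraries and 19.8 and 18.0 CPM in the FB23-2 libraries (-0.27 ± 0.10, edgeR adjusted p = 0.0506). The delta subunit EIF2B4 differed least, with 40.4 and 39.5 CPM in the control libraries and 38.6 and 36.7 CPM in the FB23-2 libraries (-0.08 ± 0.07, edgeR adjusted p = 0.379). In none of the 5 genes did the groups overlap, as in 70.8% of all tested genes, and their median was -0.22. Calls here were close to the threshold and moved with the settings: EIF2B2 was not called without FB23-2 replicate 2 (0.0587) and without control replicate 2 (0.0621), nor EIF2B5 without FB23-2 replicate 1 (0.0695) and without control replicate 2 (0.111), while EIF2B3 was called without FB23-2 replicate 1 (0.0497), by edgeR adjusted p. Over all settings the adjusted p ran from 0.00467 to 0.0621, 0.00652 to 0.111 and 0.0285 to 0.215 in that order. EIF2B1 and EIF2B3 were also called lower with upper quartile scaling, the stricter filter and the replicate block, and EIF2B3 with RLE scaling, with adjusted p for EIF2B1 from 0.0243 to 0.292. Between 0 and 4 of the 5 genes were called lower over all settings.

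The 4 eIF2 kinases had positive fold changes, and 2 of them rose. Over all tested genes 21.8% were higher, and over those that are protein-coding 27.5%, so a count from 4 genes says little. EIF2AK4 encodes GCN2 (ENSG00000128829, chromosome 15, 39934146 to 40035591), which senses uncharged tRNA. It stood at 101 and 106 CPM in the control libraries and 119.6 and 120.5 CPM in the FB23-2 libraries, for 0.22 ± 0.05, edgeR adjusted p = 0.00559. EIF2AK1, the haem-regulated kinase HRI that also relays mitochondrial stress, stood at 230.4 and 232 CPM in the control libraries and 259.7 and 254 CPM in the FB23-2 libraries (0.15 ± 0.04, edgeR adjusted p = 0.0114). EIF2AK3, the kinase PERK of the endoplasmic reticulum, was at 26.9 and 29.2 CPM in the control libraries and 33.0 and 31.4 CPM in the FB23-2 libraries and did not pass (0.19 ± 0.08, edgeR adjusted p = 0.0878). Its call was gained with scaling by library size alone (edgeR adjusted p = 0.0411), in a range of 0.0411 to 0.391 over all settings. EIF2AK2, the kinase PKR that binds double-stranded RNA, was at 78.9 and 82.0 CPM in the control libraries and 85.0 and 81.5 CPM in the FB23-2 libraries, where the groups overlapped (0.05 ± 0.05, edgeR adjusted p = 0.521). The rises were at most 1.16-fold. Per kilobase of exon, scaled like CPM, EIF2AK1 was the most abundant kinase in control (139 ± 3.86, SD, n = 2), and the other 3 lay between 17.2 ± 1.43 and 28.8 ± 1.61. The EIF2AK1 call was lost without FB23-2 replicate 1 (0.0928), without control replicate 1 (0.123) and without control replicate 2 (0.0816) and the EIF2AK4 call without control replicate 1 (0.0788) by edgeR adjusted p, with ranges of 0.00239 to 0.123 and 0.0021 to 0.0788 over all settings. EIF2AK1 shares 9.59% of its exon bases with AIMP2 on the opposite strand, which fell (-0.42).

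The genes of eIF3, the large scaffold that holds the small subunit and the mRNA together, fell nearly throughout. Of its 14 genes 13 were lower (92.9%) and 0 were higher, against 20.3% and 21.8% of all tested genes. With EIF3C and its near copy EIF3CL summed, 12 rows were lower. Log2 fold changes ran from -0.96 to -0.20 with a median of -0.50. In all 14 genes both FB23-2 libraries were below both control libraries (34.5% of all tested genes). EIF3E, a subunit of the outer ring that contacts eIF4G, fell the most, from 484 and 489 CPM in control to 258 and 242 CPM with FB23-2 (-0.96 ± 0.04, edgeR adjusted p = 6.54e-07). Of the core that nucleates the complex, EIF3A, the most abundant in CPM over the 4 libraries, went from 483 and 484 to 387 and 383 CPM (-0.33 ± 0.04, edgeR adjusted p = 8.34e-05). Its partner EIF3B went from 260.2 and 266 to 157 and 144 CPM (-0.80 ± 0.05, edgeR adjusted p = 3.38e-06). EIF3A fell 1.26-fold and EIF3B 1.75-fold. EIF3C, also of that core, went from 397 and 390.2 to 245 and 221 CPM (-0.75 ± 0.05, edgeR adjusted p = 4.97e-06).

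The remaining eIF3 genes lay between these. EIF3D, which can itself bind a cap, fell by a like amount (log2 fold change -0.67 ± 0.04), as did the outer-ring subunit EIF3M (-0.63 ± 0.04). EIF3J, a loosely held subunit that helps the complex bind and leave the small subunit (-0.52 ± 0.05), EIF3L (-0.49 ± 0.04), EIF3I (-0.46 ± 0.05) and EIF3G (-0.43 ± 0.07), an RNA-binding subunit, were near the median of the complex. EIF3F (-0.40 ± 0.05) and EIF3H (-0.38 ± 0.04), which share a protein fold, came close to each other. EIF3K, whose loss the complex is known to tolerate, was the exception: it stood at 104 and 107 CPM in the control libraries and 99.5 and 84.8 CPM in the FB23-2 libraries and missed the threshold (-0.20 ± 0.07, edgeR adjusted p = 0.0622). EIF3K was called lower without FB23-2 replicate 1 (0.00447), by edgeR adjusted p, with a range of 0.00447 to 0.312 over all settings. Per kilobase of exon, scaled like CPM, control levels ran from 80.3 ± 2.69 (EIF3F) to 396 ± 3.26 (EIF3I) (SD, n = 2). The divisor was all annotated exon bases, 9431 for EIF3F and 1725 for EIF3I. Their mean control CPM was 227 and 205, so this order depends on annotated length. EIF3CL, a copy of EIF3C nearby on chromosome 16, was listed at levels close to those of EIF3C, with 368 and 359 CPM in the control libraries and 215 and 205 CPM in the FB23-2 libraries (-0.79 ± 0.04). Of its 75-base windows 96.0% also occur in EIF3C, so reads of the pair cannot be assigned to one of them. The sum of both rows gave -0.77 ± 0.04, edgeR adjusted p = 2.00e-06.

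**Figure D2:**
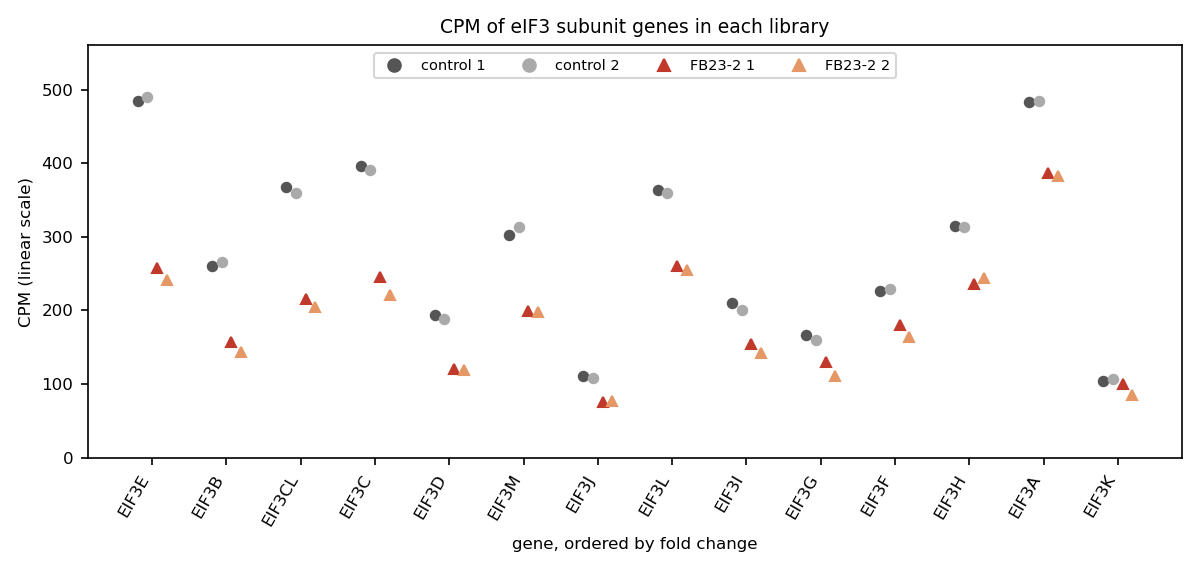
CPM (y axis, linear) of each eIF3 gene in the 2 control libraries (grey circles) and the 2 FB23-2 libraries (red and orange triangles), ordered from the largest fall at left. The triangles lie below the circles in all 14 genes, from 258 and 242 against 484 and 489 CPM for EIF3E at left to 99.5 and 84.8 against 104 and 107 CPM for EIF3K at right.

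The cap-binding and unwinding factors of eIF4 did not move as one. Of 11 tested genes 7 fell (63.6%) and 2 rose (18.2%), against 20.3% and 21.8% of all tested genes, for a median of -0.18. EIF4A1 (ENSG00000161960, chromosome 17, 7572706 to 7579005), the RNA helicase of the eIF4F complex, had the largest fall and stood at 729 and 794 CPM in the control libraries and 311 and 324 CPM in the FB23-2 libraries, 2.40-fold lower (-1.26 ± 0.05, edgeR adjusted p = 3.47e-07). Its paralog EIF4A2 stood at 525 and 539 CPM in the control libraries and 344 and 329.6 CPM in the FB23-2 libraries (-0.66 ± 0.04, edgeR adjusted p = 2.66e-06). EIF4A3, a related helicase of the exon junction complex and not of initiation, was at 145 and 152 CPM in the control libraries and 153 and 135 CPM in the FB23-2 libraries and did not pass (-0.04 ± 0.06, edgeR adjusted p = 0.603). The scaffold EIF4G1, which joins the cap-binding protein to the helicase and to eIF3, went from 488 and 482 to 277 and 282 CPM (-0.80 ± 0.04, edgeR adjusted p = 8.57e-07). EIF4B, which stimulates the helicase, went from 889 and 893 to 543 and 545 CPM (-0.71 ± 0.03, edgeR adjusted p = 9.49e-07), and the related EIF4H from 607 and 574 to 522 and 500.3 CPM (-0.21 ± 0.04, edgeR adjusted p = 0.00329). In each of these genes but EIF4A3 both FB23-2 libraries lay below both control libraries (34.5% of all tested genes).

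Of the cap-binding proteins, EIF4E and EIF4E2 were slightly lower and EIF4E3 rose. EIF4E, which binds the cap, stood at 105 and 114 CPM in the control libraries and 101 and 93.5 CPM in the FB23-2 libraries (-0.18 ± 0.06, edgeR adjusted p = 0.0355). EIF4E2, a cap-binding protein linked to repression, stood at 63.2 and 60.9 CPM in the control libraries and 54.7 and 54.6 CPM in the FB23-2 libraries (-0.18 ± 0.06, edgeR adjusted p = 0.0322). EIF4E3, another family member (ENSG00000163412, chromosome 3, 71675416 to 71754773), rose from 30.5 and 32.5 CPM in control to 58.0 and 52.9 CPM with FB23-2, 1.76-fold higher (0.81 ± 0.08, edgeR adjusted p = 3.46e-05). The groups did not overlap in any of the 3, as in 70.8% of all tested genes. The EIF4E call was lost without FB23-2 replicate 2 (0.199) and without control replicate 2 (0.295), and also with library size scaling (0.104), no filter (0.126) and DESeq2 (0.102), in an adjusted p range of 0.0146 to 0.295 over all settings. EIF4E2 was not called without FB23-2 replicate 1 (0.0719), without FB23-2 replicate 2 (0.102), without control replicate 1 (0.124) and without control replicate 2 (0.0858), nor with library size scaling (0.0949), no filter (0.0623) or DESeq2 (0.142), in a range of 0.0129 to 0.142 over all settings.

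The other scaffold genes did not fall. EIF4G2, a scaffold also called DAP5 that lacks the site for EIF4E and serves cap-independent starts, was the most abundant eIF4 RNA in CPM. It rose slightly, from 1082 and 1059 to 1221 and 1242 CPM (0.20 ± 0.03, edgeR adjusted p = 0.00108). EIF4G3, the closest paralog of EIF4G1, was at 116 and 114 CPM in the control libraries and 115 and 119 CPM in the FB23-2 libraries and had no call (0.03 ± 0.05, edgeR adjusted p = 0.67). Per kilobase of exon, scaled like CPM, control levels of eIF4 RNAs were 616 ± 9.27 for EIF4H, 483 ± 13.1 for EIF4B, 478 ± 40.4 for EIF4A1 and 412 ± 3.77 for EIF4G2, but 26.0 ± 2.06 for EIF4E and 9.74 ± 0.659 for EIF4E3 (SD, n = 2). The annotated exons of EIF4E, over which its level was divided, include those of all its transcripts, which lowers that value.

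Of the eIF4E-binding proteins, which hold EIF4E away from EIF4G until mTORC1 phosphorylates them, EIF4EBP2 rose. It stood at 250.1 and 245 CPM in the control libraries and 302 and 296 CPM in the FB23-2 libraries, for 0.27 ± 0.04, edgeR adjusted p = 0.000462. EIF4EBP1, which is known as a target of ATF4, was at 18.3 and 17.5 CPM in the control libraries and 17.8 and 18.4 CPM in the FB23-2 libraries, with overlapping groups (0.02 ± 0.10, edgeR adjusted p = 0.881). EIF4EBP3 was low, at 2.32 and 2.06 CPM in the control libraries and 0.995 and 0.922 CPM in the FB23-2 libraries (-1.17 ± 0.30, edgeR adjusted p = 0.0119), and lost its call without FB23-2 replicate 2 (0.0555), without control replicate 1 (0.0608) and without control replicate 2 (0.0537) and with DESeq2 (0.0675), in a range of 0.00632 to 0.0675 over all settings. It shares 73.4% of its exon bases with the read-through gene ANKHD1-EIF4EBP3 on the same strand, so its value is uncertain. The 2 rows together stood at 94.4 and 82.3 CPM in the control libraries and 75.9 and 78.4 CPM in the FB23-2 libraries, for a smaller difference (-0.19 ± 0.07, edgeR adjusted p = 0.0499). EIF4ENIF1, which carries EIF4E into the nucleus and into repressed particles, was at 44.3 and 44.9 CPM in the control libraries and 43.3 and 42.0 CPM in the FB23-2 libraries (-0.07 ± 0.07, edgeR adjusted p = 0.47).

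Among the factors of scanning and subunit joining, 3 of 6 tested genes fell and 0 rose. EIF5B, the GTPase that joins the large subunit, fell the most, with 173 and 167 CPM in the control libraries and 116 and 109 CPM in the FB23-2 libraries (-0.60 ± 0.05, edgeR adjusted p = 1.51e-05). EIF6, which keeps the large subunit from joining too early and takes part in its assembly, stood at 95.8 and 93.2 CPM in the control libraries and 67.7 and 66.6 CPM in the FB23-2 libraries (-0.49 ± 0.05, edgeR adjusted p = 7.15e-05). EIF1AX, the X-linked gene of eIF1A, stood at 157 and 154 CPM in the control libraries and 134 and 131 CPM in the FB23-2 libraries (-0.23 ± 0.04, edgeR adjusted p = 0.00266). The groups did not overlap in these 3, as in 70.8% of all tested genes. EIF1, the start codon selection factor and the most abundant RNA of this group in CPM, was at 332 and 309 CPM in the control libraries and 360.4 and 323 CPM in the FB23-2 libraries with overlapping groups (0.09 ± 0.06, edgeR adjusted p = 0.25). EIF1 was called higher without FB23-2 replicate 2 (0.0473), by edgeR adjusted p, with a range of 0.0473 to 0.948 over all settings. EIF1B, its near copy (0.06 ± 0.08), and EIF1AD, a protein of small subunit assembly related to eIF1A (-0.08 ± 0.08), did not pass.

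Elongation factors included the most abundant RNAs of the whole set. Of 12 genes 7 fell (58.3%) and 1 rose (8.33%), against 20.3% and 21.8% of all tested genes. EEF1A1 (ENSG00000156508, chromosome 6, 73515750 to 73523797), which delivers aminoacyl tRNA, stood at 9049 and 9178 CPM in the control libraries and 7690.3 and 7558 CPM in the FB23-2 libraries, with the groups apart (-0.26 ± 0.03, edgeR adjusted p = 0.000113). Of the exchange complex that recharges it, EEF1B2 went from 376 and 326 to 243 and 228 CPM (-0.57 ± 0.07, edgeR adjusted p = 0.00088) and EEF1D from 99.1 and 98.3 to 65.4 and 63.8 CPM (-0.61 ± 0.05, edgeR adjusted p = 1.76e-05). EEF2, the translocase, did not pass: it stood at 2446 and 2358 CPM in the control libraries and 2414 and 2319 CPM in the FB23-2 libraries, with overlapping groups (-0.02 ± 0.04, edgeR adjusted p = 0.675). Per kilobase of exon, scaled like CPM, EEF1A1 was at 5103 ± 176 and EEF2 at 1986 ± 2.70 in control (SD, n = 2). EEF1A2, the isoform of neurons and muscle, had 5 to 12 counts per library and was not called (-0.16 ± 0.73, edgeR adjusted p = 0.891).

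The remaining exchange subunit, EEF1G, had discordant control libraries. It stood at 1724 and 1308 CPM in the control libraries and 1373 and 1291 CPM in the FB23-2 libraries, so that control replicate 2 lay with the FB23-2 libraries, and it was not called (-0.19 ± 0.19, edgeR adjusted p = 0.532). Leaving out control replicate 1 gave a log2 fold change of 0.01 (edgeR adjusted p = 0.92), and leaving out control replicate 2 gave -0.37 (edgeR adjusted p = 0.0035), in a range of 0.00178 to 0.92 over all settings. A read-through gene on the same strand, AP002990.1, covers 99.9% of the exon bases of EEF1G, and its counts moved the opposite way among the controls, with 27.9 and 288 CPM in the control libraries and 19.0 and 8.13 CPM in the FB23-2 libraries. Added together, the pair stood at 1752 and 1596 CPM in the control libraries and 1392 and 1299 CPM in the FB23-2 libraries and was lower with FB23-2 (-0.31 ± 0.05, edgeR adjusted p = 0.00178). Reads of the shared exons cannot be assigned to one row, and the EEF1G row alone does not give its level. EIF4A1 has the same arrangement, with SENP3-EIF4A1 at 75.3 and 3.28 CPM in the control libraries and 0 and 1.12 CPM in the FB23-2 libraries and AC016876.2 at 57.4 and 47.8 CPM in the control libraries and 31.2 and 18.4 CPM in the FB23-2 libraries. There the sum of the 3 rows gave 862 and 845 CPM in the control libraries and 342 and 343 CPM in the FB23-2 libraries (-1.32 ± 0.04, edgeR adjusted p = 7.11e-08), near the value of EIF4A1 alone. The sums of rows given here were chosen after the data were seen.

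**Figure D3:**
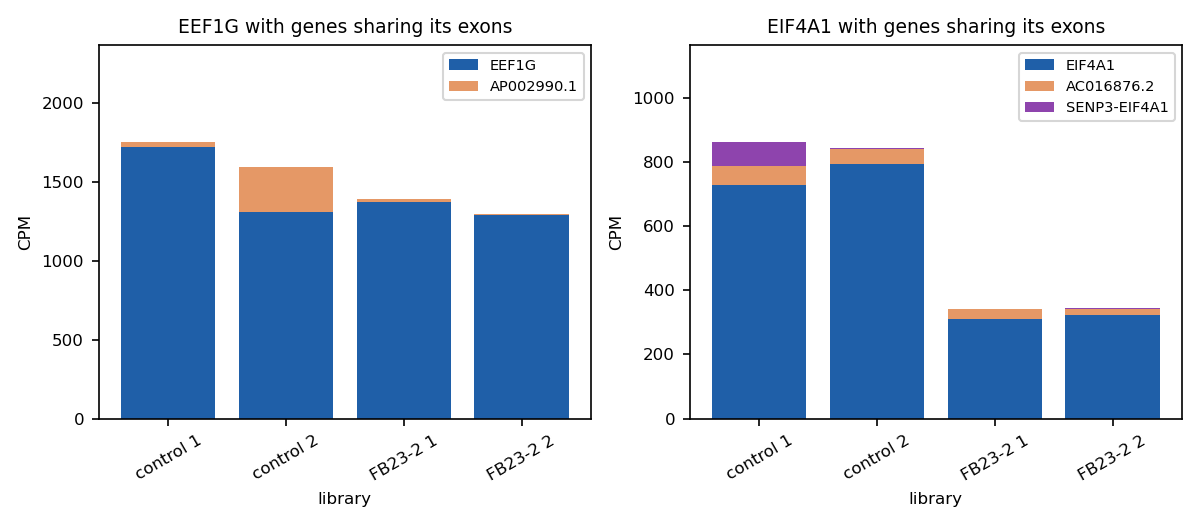
CPM (y axis, from 0) in each library of EEF1G and of EIF4A1 (blue) stacked with the genes that share their exons on the same strand (orange and purple), 1 bar per library. AP002990.1 had 27.9 and 288 CPM in controls 1 and 2, and the EIF4A1 stacks of both control libraries stand above those of both FB23-2 libraries.

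Factors that regulate or modify the elongation machinery also changed. EEF2K, the kinase that inhibits EEF2, stood at 59.0 and 64.2 CPM in the control libraries and 47.8 and 52.1 CPM in the FB23-2 libraries (-0.31 ± 0.07, edgeR adjusted p = 0.00664) and was not called without control replicate 2 (0.0867), by edgeR adjusted p, with a range of 0.00236 to 0.0867 over all settings. EEF2KMT, a lysine methyltransferase of EEF2 (ENSG00000118894, chromosome 16, 5084304 to 5097808), had the largest fall of all 66 tested genes, from 24.7 and 22.3 to 8.72 and 8.85 CPM, 2.66-fold lower (-1.41 ± 0.11, edgeR adjusted p = 1.21e-05). It shares 29.3% of its exon bases with ALG1 on the opposite strand, which also fell (-0.81), so its value is uncertain. EEFSEC, which delivers selenocysteine tRNA, was at 26.6 and 31.8 CPM in the control libraries and 29.2 and 28.7 CPM in the FB23-2 libraries and was not called (-0.03 ± 0.10, edgeR adjusted p = 0.856), and 15.3% of its exon bases are shared with RUVBL1 on the opposite strand (-0.76).

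The eIF5A genes, whose protein carries the modified lysine hypusine and relieves ribosomes stalled at prolines, went in opposite directions. EIF5A (ENSG00000132507, chromosome 17, 7306999 to 7312463) fell from 584 and 549 CPM in control to 311 and 273 CPM with FB23-2, 1.94-fold lower (-0.95 ± 0.07, edgeR adjusted p = 4.21e-05). EIF5A2 (ENSG00000163577, chromosome 3, 170888415 to 170908693) rose from 16.6 and 19.2 to 32.5 and 30.3 CPM, 1.74-fold higher (0.80 ± 0.10, edgeR adjusted p = 0.000172). The groups were apart in both genes, and both calls were made in each alternative tried. EIF5AL1, a retrocopy of EIF5A, was called lower too (-0.94 ± 0.14, edgeR adjusted p = 0.000566). It stood at 13.5 and 13.1 CPM in the control libraries and 7.54 and 6.28 CPM in the FB23-2 libraries. Of its 75-base windows 6.88% occur in EIF5A and 6.40% in another copy, EIF5AP4, which fell (-1.14), so the EIF5AL1 counts are uncertain. EIF5A shares 8.56% of its exon bases with GPS2 on the opposite strand, which rose (0.48). Per kilobase of exon, the share of EIF5A2 in the sum of EIF5A and EIF5A2 was 1.41% and 1.73% in control and 4.99% and 5.29% with FB23-2.

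Other paralog pairs of the set were also compared by such shares, as a description without a test. Of the sum of EIF4A1 and EIF4A2, EIF4A2 made up 38.4% and 37.0% in control and 49.0% and 46.9% with FB23-2. Of the sum of EIF4G1 and EIF4G3, EIF4G3 made up 16.9% and 16.9% in control and 26.3% and 26.7% with FB23-2. Of the sum of EIF4E and EIF4E3, EIF4E3 made up 27.5% and 27.1% in control and 43.0% and 42.5% with FB23-2. In the EIF5A, EIF4A, EIF4G and EIF4E pairs named so far, the less abundant RNA per length took a larger share in both FB23-2 libraries than in either control library. Other pairs differed. EIF4H was more abundant than EIF4B per length but not in CPM. Its share of their sum was 56.8% and 55.3% in control and 64.9% and 63.9% with FB23-2. The more abundant EIF4EBP2 made up 66.9% and 67.4% of the sum with EIF4EBP1 in control and 71.4% and 70.4% with FB23-2. The shares overlapped for EIF4E2 in the sum with EIF4E, 54.0% and 51.2% in control and 51.6% and 53.4% with FB23-2, and for EIF1B in the sum with EIF1, 22.4% and 21.4% in control and 21.1% and 21.7% with FB23-2.

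**Figure D4:**
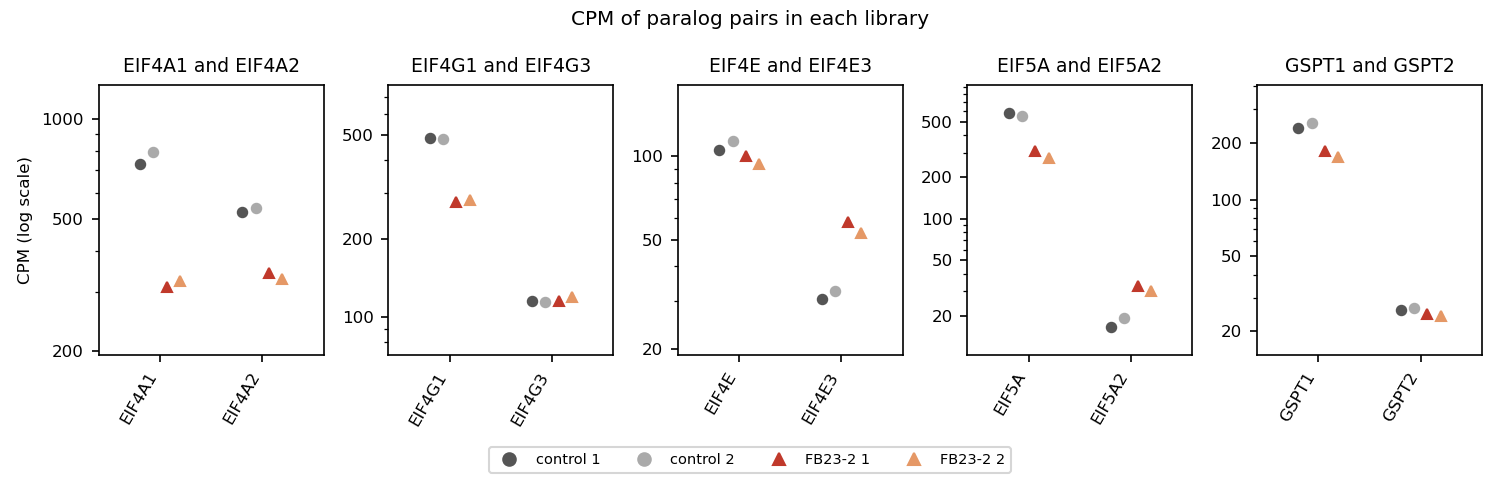
CPM (y axes, log scale, a separate range in each panel) of 5 paralog pairs in the 2 control libraries (grey circles) and the 2 FB23-2 libraries (red and orange triangles). EIF5A and EIF5A2 move in opposite directions, as do EIF4E and EIF4E3, while EIF4A1 and EIF4A2 both fall, EIF4A1 to 311 and 324 CPM.

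Both subunits of the release complex fell. ETF1, eRF1, which reads stop codons, stood at 169 and 172 CPM in the control libraries and 121 and 123 CPM in the FB23-2 libraries (-0.48 ± 0.04, edgeR adjusted p = 2.67e-05). GSPT1, the GTPase eRF3a that works with it, stood at 238 and 254 CPM in the control libraries and 182 and 169 CPM in the FB23-2 libraries (-0.49 ± 0.05, edgeR adjusted p = 6.81e-05). GSPT2, the eRF3b retrogene on the X chromosome, was at 26.1 and 26.5 CPM in the control libraries and 24.9 and 24.0 CPM in the FB23-2 libraries and was not called (-0.11 ± 0.08, edgeR adjusted p = 0.339). The share of GSPT2 per kilobase in the sum of the pair was 23.9% and 23.0% in control and 28.1% and 28.9% with FB23-2.

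Other genes of the pathway were taken from 6 lists, chosen with earlier results of these data known. The lists held 65 symbols, of which 64 were found and 63 tested. Of these 30 were lower (47.6%) and 9 higher (14.3%), against 20.3% lower and 21.8% higher over all tested genes, beside which the counts of each list below are read. PPP1R15A, the GADD34 subunit that directs the phosphatase to eIF2 and so reverses the kinases, rose from 19.8 and 22.0 to 50.04 and 45.6 CPM (1.19 ± 0.09, edgeR adjusted p = 8.38e-06). ATF4, the transcription factor whose translation rises when eIF2 is phosphorylated, had lower RNA, with 614 and 571 CPM in the control libraries and 455 and 450.2 CPM in the FB23-2 libraries (-0.39 ± 0.04, edgeR adjusted p = 9.33e-05), and the GCN2 activator GCN1 fell (-0.41 ± 0.05). The eIF2 phosphatase and kinase partners had 2 higher (33.3%) and 2 lower (33.3%) of 6 tested, and IMPACT, an inhibitor of GCN2, had 0 to 6 counts and was not tested.

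Partners of the cap and of the poly(A) tail had 4 higher (26.7%) and 5 lower (33.3%) of 15, shares not far from those over all tested genes. PDCD4, which sequesters the EIF4A helicase, rose from 95.0 and 101 to 137 and 127 CPM (0.43 ± 0.06, edgeR adjusted p = 0.00026), and PAIP2B, an inhibitor of poly(A)-binding protein, rose the most of the list (0.67 ± 0.08). NCBP2, the small subunit of the nuclear cap-binding complex, fell the most (-0.73 ± 0.05), and MKNK2, a kinase of EIF4E, fell (-0.21 ± 0.04). PABPC1, the main poly(A)-binding protein, missed the threshold (-0.09 ± 0.03, edgeR adjusted p = 0.0558) but met it with upper quartile scaling, the stricter filter and the replicate block (edgeR adjusted p 0.0105 to 0.0387), in a range of 0.0105 to 0.281 over all settings. Upstream of eIF4, the mTORC1 activator RHEB rose (0.51 ± 0.05) and the mTORC1 scaffold RPTOR fell (-0.62 ± 0.06), in a list with 3 higher and 2 lower of 8 (37.5% and 25.0%). Its count of higher genes was 1 without any single library (FB23-2 replicate 1 or 2, control replicate 1 or 2), with upper quartile scaling, with no filter and with DESeq2, and 5 with library size scaling.

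The genes of start site selection and ribosome recycling held 5 lower (62.5%) and 0 higher of 8, and 8 lower with upper quartile scaling. BZW2, a mimic of eIF5 that competes for eIF2, fell from 143 and 137 to 72.0 and 72.1 CPM (-0.95 ± 0.05, edgeR adjusted p = 1.41e-06). The list for modification of elongation factors had 10 lower (62.5%) and 0 higher of 16, with 7 lower with DESeq2 and fewer without control replicate 2. Of the 10, EEF1E1 (-0.49), N6AMT1 (-0.65) and TRMT112 (-0.37) are not known as modifiers of elongation factors. DPH2, which takes part in making diphthamide on EEF2, fell from 38.9 and 43.3 to 17.7 and 17.3 CPM (-1.24 ± 0.09, edgeR adjusted p = 6.91e-06). DHPS, which takes the first step in making hypusine on EIF5A, missed the threshold (-0.12 ± 0.05, edgeR adjusted p = 0.102). It met the threshold with upper quartile scaling (edgeR adjusted p = 0.0353), and its log2 fold change ran from -0.17 to -0.07 over all settings. DOHH, which takes the step that completes hypusine, was called lower (-0.40 ± 0.11, edgeR adjusted p = 0.0148). Translation factors of the mitochondrion had 6 lower and 0 higher of 10, and 1 higher with library size scaling. There TSFM, the exchange factor of the elongation factor TUFM, fell the most (-0.76 ± 0.09), and TUFM itself stood at 225 and 227 CPM in the control libraries and 182 and 171 CPM in the FB23-2 libraries (-0.36 ± 0.05, edgeR adjusted p = 0.000217).

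Of the 47 called translation factor genes, 38 (34 lower and 4 higher) were called in the same direction in each of the 11 alternatives, and 0 changed sign. The median of the set lay between -0.38 and -0.28 over those alternatives, while that of all tested genes lay between -0.04 and 0.05. Beyond the read-through genes, 9 of the 66 tested genes overlap an expressed gene (10 CPM or more in control) on the other strand in at least 5% of their exon bases. Among these EIF2B1 shares 14.8% with DDX55 (-0.57), EIF5B 10.8% with REV1 (0.17) and EIF3L 10.7% with ANKRD54 (0.17). Processed copies share sequence with some genes. Of the 75-base windows of EEF1A1, 17.2% occur in EEF1A1P5, which was at 642 and 529 CPM in the control libraries and 455 and 471 CPM in the FB23-2 libraries, and of those of EEF1B2, 22.5% occur in EEF1B2P3, which fell (-0.41).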

How the data were processed

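RNA of 4 libraries (2 with FB23-2, 2 controls) was sequenced. The authors deposited whole-number counts per gene. Per the submitters' processing notes they used HISAT2 2.2.0, StringTie and hg38, in which the role of each is not stated. The sources used here do not give the annotation, the counting step or the use of strand, so reads of overlapping, antisense or near-identical genes may be split between rows. StringTie can give counts from coverage, and the counts were used as deposited.

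Gene types, exon lengths and coordinates came from GENCODE release 29, in which 56591 of 64252 identifiers were found. Counts were tested with edgeR 4.0.16 in R 4.3.3 (TMM scaling, filterByExpr with a minimum count of 10, robust quasi-likelihood test, group as the only term, Benjamini-Hochberg adjustment over 18817 genes, threshold 0.05). The procedure was checked on simulated counts. The biological coefficient of variation was 10.5%, and 3 counts correspond to 0.0785 to 0.125 CPM. Levels per kilobase used all annotated exon bases and compare genes within these libraries. Sequence sharing was counted in 75-base windows of annotated transcripts. Values in every library are given for the most abundant gene and the largest called rise and fall of each role, for all genes of roles with 5 or fewer, for paralogs called in opposite directions, and for further genes chosen after their values were seen. In the pathway lists the largest called rise and fall and 7 set genes are named, and a few further genes were named after their values were seen. The genes, lists and tests were chosen with earlier results of these data known. Alternatives were RLE, upper quartile and library size scaling, no filter, a stricter filter (1 CPM in every library of a group), DESeq2 1.42.0, the replicate number as a block, and leaving out each library. The sum of rows with shared exons was added after seeing the data.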

Additional observations from a re-analysis of the deposited data

How the results depend on the processing

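Over the 11 alternatives, 35 to 44 translation factor genes were called lower and 4 to 7 higher. The count of lower eIF2B genes, 2 as reported, was 4 with upper quartile scaling, 4 with the stricter filter and 4 with the replicate block, and 0 to 2 when single libraries were left out. In those leave-one-out fits the eIF2 kinases had 0 to 2 genes called higher, the eIF4E-binding proteins 0 to 1 lower (0 with DESeq2), and scanning and subunit joining 0 to 1 higher. The cause was not tested. Where a library was left out, the remaining one of its group was assumed to vary like the other group.

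Signs turned only in genes that were not called. With single libraries left out, the log2 fold change ran from -0.0012 to 0.082 for EIF2AK2, -0.16 to 0.045 for EIF4A3, -0.0083 to 0.033 for EIF4EBP1, -0.0060 to 0.17 for EIF1 and -0.22 to 0.021 for EIF1AD. It ran from -0.042 to 0.13 for EIF1B, -0.92 to 0.81 for EEF1A2, -0.37 to 0.010 for EEF1G, -0.069 to 0.011 for EEF2 and -0.15 to 0.12 for EEFSEC. Library size scaling gave log2 fold changes of 0.0020 for EIF4A3, 0.026 for EEF2 and 0.020 for EEFSEC. Upper quartile scaling gave log2 fold changes of -0.012 for EIF4G3 and -0.018 for EIF4EBP1.

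The labels name no shared day for libraries with the same replicate number. Deviations of same-numbered libraries correlated at 0.0623, a single value that cannot show whether the samples were paired. With the replicate block 44 genes were lower and 6 higher. With rows of shared exons summed, an addition made after seeing the data, EEF1G was called lower (-0.31) and the set had 41 lower and 6 higher rows. Genes at a few counts per library, such as EEF1A2, cannot show a change of the size seen elsewhere in the set.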
